A study of Homo sapiens with 20 samples.

Results

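The 3 peroxisome proliferator-activated receptors (PPARA, PPARD and PPARG), their coactivator PPARGC1A and 5 genes that fatty acids and fasting act on through these receptors (ANGPTL4, PDK4, FGF21, PLIN2 and CIDEC) were followed in HepaRG cells. HepaRG is an established human liver line whose progenitors differentiate into hepatocyte-like and biliary-like cells. The genes were found through the RefSeq transcript accession of each array probe, which gave 13 probes for the 9 genes, of 42405 probes for 35372 genes on the array. PPARA, PPARD, PPARG and CIDEC each had a pair of probes, and the others had 1 each. The arrays were 20 one-colour Agilent microarrays, with 4 independent cultures for each of 5 conditions. D4 was the progenitor stage at day 4 after seeding, and D15 was day 15, when the cells were committed to differentiation. D30 − DMSO cells stayed in the same medium until day 30, D30 + DMSO cells received 2% dimethyl sulfoxide (DMSO, the solvent used to mature this line) from day 15 to day 30, and D34 ± DMSO cells were D30 + DMSO cells kept for 4 more days after DMSO was removed. All 5 conditions shared William's E medium with 10% serum, hydrocortisone at 50 μM and insulin at 5 μg/mL, so no condition was free of insulin or of glucocorticoid, and no condition was a fast. HepaRG is 1 line, and the cultures held more than one cell type.

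PPARs are nuclear receptors that are activated by fatty acids and bind DNA as partners of the retinoid X receptors. PPARA is the main form of the hepatocyte, where it drives fatty acid oxidation and ketogenesis during fasting, PPARD is present in most tissues, and PPARG is the form that drives fat cell differentiation and lipid storage. PPARGC1A (PGC-1 alpha) is a coactivator that rises in the fasted liver and acts on fatty acid oxidation, gluconeogenesis and mitochondria.

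Levels are scanner intensities scaled so that every array had the same 75th percentile (563 units), or the log2 of the same values with 0 at that percentile. A level ranks one probe across arrays, and the levels of different probes were not ranked against each other. For a gene to be tested, 1 or more conditions had to have its probe well above background on each of their 4 arrays. This held for 8 of the 9 genes and for 22221 genes in all. Called means a Benjamini-Hochberg adjusted p below 0.005 in limma over all genes tested together with a difference of more than 2-fold, and rose and fell are used only of called genes. Counts at an unadjusted p under 0.05 are given without a share of all genes, which was not counted for any comparison. As the arrays measured bulk RNA, fewer cells of a type and less RNA per cell cannot be told apart.

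On the arrays, all 9 hepatocyte markers (among them ALB, APOA1, APOB, TTR, TF, SERPINA1, ASGR1 and TDO2) were well above background in every condition and rose from D4 to D15, and their part in the values of the members was not tested. Of the 7 adipocyte markers on the array, ADIPOQ and LEP never stood well above background, and the summed intensity of the list stayed between 103 and 376 units, highest and lowest both at D4. The 6 stellate and fibroblast markers, of which PDGFRB never stood well above background, summed to 1806 to 2120 units at D30 + DMSO, against 2963 to 3720 units at D30 − DMSO and 3163 to 4219 units at D34 ± DMSO. The 5 proliferation markers (MKI67, TOP2A, CDK1, CCNB1 and BUB1) summed to 4433 to 6212 units at D4, 334 to 1007 units at D15 and in both D30 conditions, and 4104 to 9249 units at D34 ± DMSO, and the part of cell division in the values of D4 and D34 ± DMSO was not tested. Replicate 4 of every condition and replicate 3 of D15 and D30 + DMSO were hybridised on 1 of the 4 slides and scanned in a session apart from the other 3. The brighter PPARG probe had its highest value on replicate 4 in 5 of 5 conditions, and so had the dimmer CIDEC probe. No member probe was saturated on any array.

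PPARA was lowest in progenitors and highest under DMSO. Its scaled intensities were 189.7, 165, 165 and 233 units at D4, and 436, 373, 306 and 407 units at D15. They were 320.2, 400.2, 424 and 396 units at D30 − DMSO, and 592, 658, 794 and 933 units at D30 + DMSO. They were 453, 795, 343 and 319.6 units at D34 ± DMSO. Every D4 array lay below every other array, and every D30 + DMSO array lay above every D15 and D30 − DMSO array, whereas the D34 ± DMSO cultures ran from the range of D30 − DMSO to that of D30 + DMSO, where replicate 2 lay. From D4 to D15 PPARA rose by 1.02 ± 0.24 (log2 difference ± SE, n = 4 and 4; limma adjusted p = 0.00327), a difference close to the 2-fold limit. This call was made under 23 of 33 alternative settings, with 0.83 to 1.13 over them, and it was lost when replicate 1, 2 or 3 of D4 (1.03, 0.96 and 0.96) or replicate 1, 2 or 4 of D15 (0.95, 1.02 and 0.98) was left out. With DMSO it was 0.94 ± 0.24 higher than at D30 − DMSO (adjusted p = 0.00818, not called). With the slide as a block this difference was 1.10 (adjusted p = 0.00187) and was called, and within the 2 slides that held both conditions it was 0.96 and 1.12. Over the whole protocol, from D4 to D30 + DMSO, PPARA rose by 1.98 ± 0.24 (3.94-fold, adjusted p = 1.69e-06), a call made under 33 of 33 alternatives. The dimmer PPARA probe, at 13.3 to 88.2 units, gave 0.66 ± 0.43 from D4 to D15 and 0.75 ± 0.43 with DMSO, neither called.

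PPARD was highest with DMSO and differed little among the other conditions. The 12 arrays of D4, D15 and D30 − DMSO lay between 817 and 1162 units, and no neighbouring pair of these conditions in the order of the means differed beyond its spread. The D30 + DMSO cultures had 1812, 1772, 2224 and 1802 units, and the D34 ± DMSO cultures 793, 957, 957 and 903 units. All 4 DMSO cultures were above every other array. Compared with D30 − DMSO the level was 0.80 ± 0.12 higher (1.74-fold, adjusted p = 0.000108), which passed the adjusted p but not the fold. After removal it fell by 1.07 (log2 difference, SE 0.12, adjusted p = 3.55e-06). Without replicate 3 of D30 + DMSO this difference was -0.996 (adjusted p = 2.55e-05), under the fold limit. The dimmer PPARD probe, at 28.1 to 249 units, disagreed on removal, with a difference of 0.10 ± 0.45 (adjusted p = 0.921), and its 4 arrays at D34 ± DMSO ranged from 34.6 to 249 units.

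PPARG was lowest with DMSO, where PPARA and PPARD were highest. Its intensities were 412, 467, 415 and 589 units at D4, and 270.1, 295, 292 and 427 units at D15. They were 347, 271, 292 and 723 units at D30 − DMSO, and 164, 153, 156 and 262 units at D30 + DMSO. They were 325, 336, 238 and 652 units at D34 ± DMSO. The D30 + DMSO cultures were below all those of D4, D15 and D30 − DMSO, and their replicate 4 lay above the lowest D34 ± DMSO culture. The difference with DMSO was -1.07 ± 0.31 (adjusted p = 0.0217) and that on removal was 1.01 ± 0.31 (adjusted p = 0.0255), both over 2-fold and neither called. With the slide as a block they were -1.26 (adjusted p = 0.000951) and 1.17 (adjusted p = 0.00102), both then called. Within the 2 slides that held both conditions the DMSO difference was -1.84 and -1.13. From D4 to D30 + DMSO PPARG fell by 1.38 (log2 difference, SE 0.31, adjusted p = 0.00149). That call was lost without replicate 4 of D4 (-1.27) or without replicate 1, 2 or 3 of D30 + DMSO (-1.34, -1.30 and -1.31). The dimmer PPARG probe gave -0.85 ± 0.23 with DMSO (adjusted p = 0.0134) and 0.82 ± 0.23 on removal (adjusted p = 0.0139), without overlap in either comparison. The stellate and fibroblast sum was also lowest with DMSO, though 1 of its 5 tested markers was called lower than at D30 − DMSO. Of 6 biliary and progenitor markers tested there, 1 was called higher and 1 lower, beside 5.87% of all genes called. The part of either list in the PPARG values was not tested.

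Read on the same array, the log2 level of PPARA minus that of PPARG shows unequal change between conditions rather than relative abundance, since the probes differ. It ranged from -1.50 to -1.12 at D4, from -0.07 to 0.69 at D15, from -0.87 to 0.56 at D30 − DMSO, from 1.83 to 2.35 at D30 + DMSO and from -1.03 to 1.24 at D34 ± DMSO. The D4 arrays and the D30 + DMSO arrays were at opposite ends and overlapped with no other condition, and D34 ± DMSO was the most scattered.

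**Figure D1:**
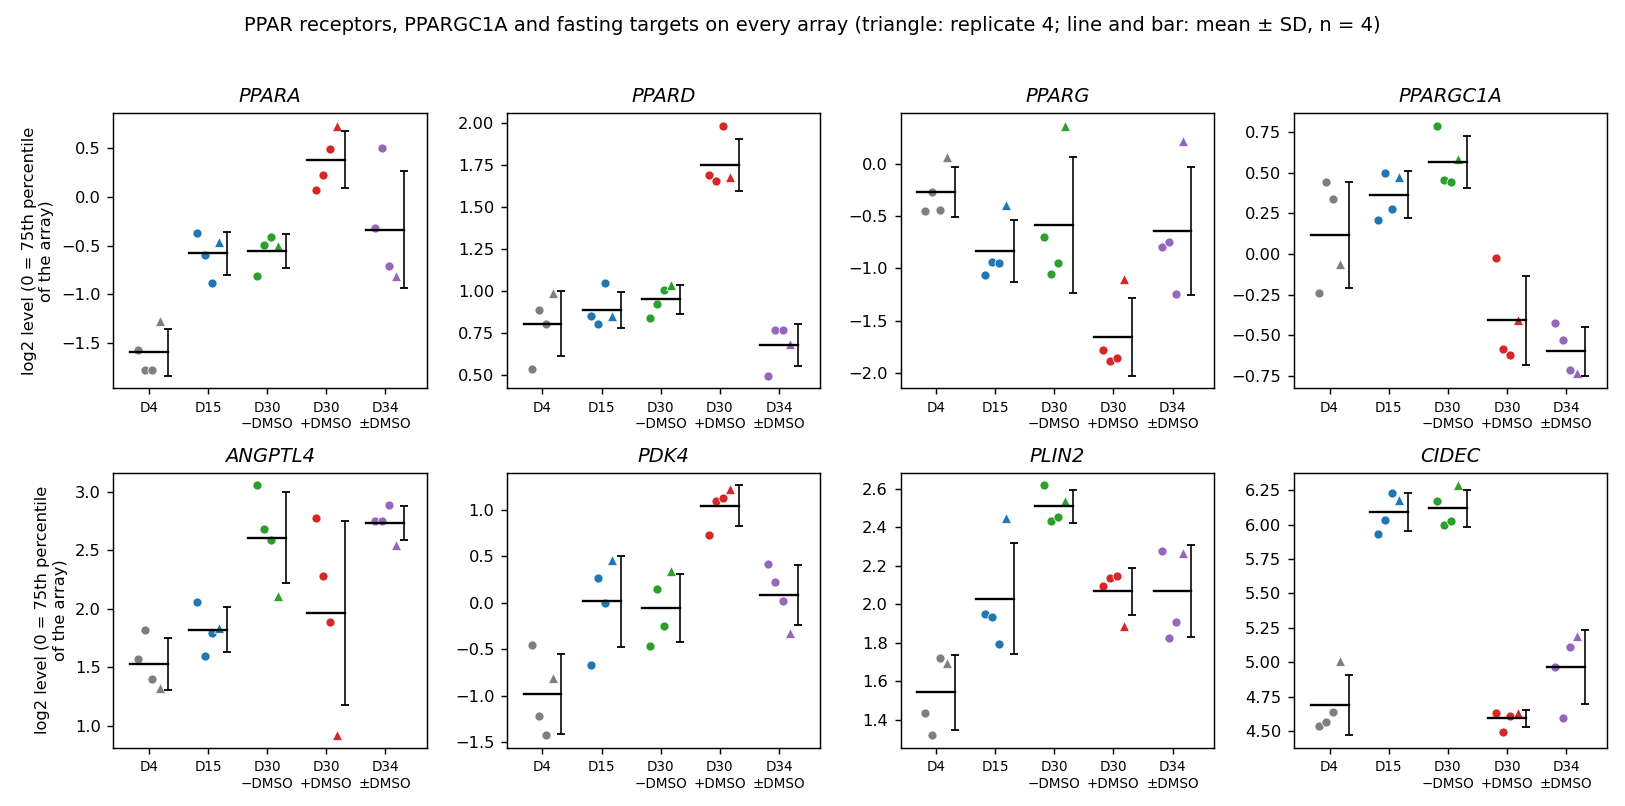
Log2 levels (vertical axis, 0 at the 75th percentile of the array) of the 8 members tested in the 5 conditions (horizontal axis), 1 point for each of 4 cultures, with replicate 4 as a triangle and the mean ± SD as a line and bar. PPARA, PPARD and PDK4 are highest at D30 + DMSO, PPARG is lowest there, and PPARGC1A and CIDEC are low at both D30 + DMSO and D34 ± DMSO.

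PPARGC1A was low with DMSO and was also low after its removal. Its intensities were 476, 765, 712 and 539 units at D4, and 652, 795, 681 and 782 units at D15. They were 973, 770.4, 767 and 843 units at D30 − DMSO, and 553, 375, 367 and 425 units at D30 + DMSO. They were 419.9, 390.2, 343 and 339 units at D34 ± DMSO. All 8 arrays of cells that had received DMSO were below all arrays of D15 and D30 − DMSO, and the D34 ± DMSO cultures were also below every D4 culture. With DMSO the difference was -0.98 ± 0.17 (1.97-fold, adjusted p = 0.000324), just under the fold limit. With the slide as a block it was -1.03 (adjusted p = 8.59e-05) and was called, and it was -1.09 within each of the 2 slides that held both conditions. On removal it was -0.19 ± 0.17 (adjusted p = 0.508). Between D34 ± DMSO and D30 − DMSO it was -1.17 ± 0.17 (2.25-fold, adjusted p = 0.000175), which was called, and the cultures compared there differed both in their DMSO history and by 4 days of age.

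Only the PPARG windows among the members' promoters held a match to any motif searched, so 1 of them is printed, beside windows of PDK4 and CIDEC, the 2 members called when DMSO was added. The windows are 300 bases from RefSeq (GRCh38.p14), mostly upstream of an annotated start and ending shortly after it, and all 9 genes matched, with 17 windows. The motifs were the PPAR response element, taken as AGGTCA repeated in the same direction with any 1 base between, AGGTCA alone (the hexamer that nuclear receptors bind, which the first motif also contains), TGACGTCA (CREB) and GTAAACA (FOXO), each searched on both strands. AGGTCA was in 3 of the 17 windows, all of PPARG and 2 of them overlapping, and in 13.8% of all 35116 windows. The response element was in 0 of the 17 and in 0.0228% of all windows, TGACGTCA in 0 and 1.85%, and GTAAACA in 0 and 3.42%. No match says only that these letters are not in the window. Capitals mark AGGTCA, found at positions 34 and 67 of the PPARG window chr3:12287118-12287417 (plus strand). The CIDEC window is chr3:9880204-9880503 and the PDK4 window chr7:95596467-95596766, both on the minus strand and printed 5′ to 3′ on the strand of the gene.
PPARG: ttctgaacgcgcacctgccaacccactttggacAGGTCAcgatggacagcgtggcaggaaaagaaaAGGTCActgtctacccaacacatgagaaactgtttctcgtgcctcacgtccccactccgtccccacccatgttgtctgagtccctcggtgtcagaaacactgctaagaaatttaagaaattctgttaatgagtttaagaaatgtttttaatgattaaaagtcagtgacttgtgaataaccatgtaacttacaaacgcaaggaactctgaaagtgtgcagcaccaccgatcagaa
CIDEC: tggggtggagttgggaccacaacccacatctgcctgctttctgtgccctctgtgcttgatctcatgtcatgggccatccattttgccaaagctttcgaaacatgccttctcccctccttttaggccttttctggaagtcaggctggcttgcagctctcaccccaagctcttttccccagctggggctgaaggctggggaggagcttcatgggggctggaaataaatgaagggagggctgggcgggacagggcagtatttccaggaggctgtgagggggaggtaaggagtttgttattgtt
PDK4: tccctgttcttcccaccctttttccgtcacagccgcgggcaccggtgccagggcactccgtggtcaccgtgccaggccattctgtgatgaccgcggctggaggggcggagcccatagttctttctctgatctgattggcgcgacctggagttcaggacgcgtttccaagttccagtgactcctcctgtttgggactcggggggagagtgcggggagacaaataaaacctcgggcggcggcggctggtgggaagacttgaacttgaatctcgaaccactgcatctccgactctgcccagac

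PDK4, the kinase that switches off pyruvate dehydrogenase and spares glucose when fatty acids are burned, was lowest at D4 and highest with DMSO. Its intensities were 410.4, 243, 209.5 and 320.5 units at D4, and 355, 679, 560.4 and 775 units at D15. They were 407, 623, 475 and 715 units at D30 − DMSO, and 934, 1209, 1230.5 and 1319.9 units at D30 + DMSO. They were 753, 659, 572 and 448 units at D34 ± DMSO. The 4 DMSO cultures were above all 16 others, and D15, D30 − DMSO and D34 ± DMSO overlapped. PDK4 rose by 1.10 ± 0.26 with DMSO (2.15-fold, adjusted p = 0.00491) with limma, on the threshold of the call. The call was made under 13 of 33 alternatives (adjusted p from 0.00201 to 0.0218), was lost with the slide as a block (1.07, adjusted p = 0.00972), and was lost without any of 14 single arrays, among them all 4 of D30 + DMSO (1.04 to 1.21). On removal the difference was -0.96 ± 0.26 (1.95-fold, adjusted p = 0.0109, not called, without overlap). From D4 to D30 + DMSO it rose by 2.02 ± 0.26 (4.07-fold, adjusted p = 3.93e-06), a call made under 33 of 33 alternatives. Over the 20 arrays, which share 5 conditions and 4 slides, the log2 levels of PDK4 and PPARA had a Pearson r of 0.87, the highest of any pair of members.

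ANGPTL4, a secreted inhibitor of lipoprotein lipase, was not called from D4 to D15, from D15 to D30 − DMSO, with DMSO or on its removal. Its intensities were 1670.3, 1985, 1484 and 1409 units at D4, and 2346, 1699.8, 1953 and 2016 units at D15. They were 4676, 3605, 3390.2 and 2426 units at D30 − DMSO, and 3853, 2738, 2078 and 1065 units at D30 + DMSO. They were 3778, 3784, 4167 and 3275 units at D34 ± DMSO. The D30 + DMSO cultures were the most spread (SD 0.79 on the log2 scale, against 0.14 to 0.39 in the other conditions), and replicate 4 was lowest in 4 of 5 conditions. The difference with DMSO was -0.64 ± 0.28 (adjusted p = 0.138). D34 ± DMSO was 1.20 ± 0.28 above D4 (2.30-fold, adjusted p = 0.00383), which was called, and was also called under 18 of 33 alternatives. D30 − DMSO was 1.08 ± 0.28 above D4 (2.11-fold, adjusted p = 0.00764), which was not called but was called under 8 of 33 alternatives. D34 ± DMSO and D30 − DMSO differed by 0.12 ± 0.28 (adjusted p = 0.967). FGF21, the hepatic hormone of fasting and amino acid stress, stood well above background in 0 of 4 cultures of D4, of D15 and of D30 + DMSO. It passed that mark on 1 of 4 arrays at D30 − DMSO (39.4 units) and on 2 of 4 at D34 ± DMSO (127 and 55.9 units). The remaining cultures read 6.93, -1.75, 4.71 and 2.42 units at D4, and 7.88, 4.09, -1.05 and 2.66 units at D15. They read 4.71, 9.54 and 14.3 units at D30 − DMSO, 6.88, 7.80, 7.08 and -0.791 units at D30 + DMSO, and 7.69 and 4.92 units at D34 ± DMSO. These lie at background, so no fold is given and FGF21 was not tested.

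CIDEC and PLIN2 are lipid droplet proteins, CIDEC (also called FSP27) promoting droplet fusion and PLIN2 coating the droplets of hepatocytes. CIDEC had the smallest adjusted p of the 8 genes from D4 to D15 and with DMSO. Its brighter probe read 13046, 13376, 14056 and 18134 units at D4, and 34339, 36836, 42257 and 40693 units at D15. It read 40589, 35937, 36624 and 43914 units at D30 − DMSO, and 13945, 12712, 13758 and 13964 units at D30 + DMSO. It read 17590.2, 13594, 19500.1 and 20581 units at D34 ± DMSO. The arrays fell into a high set, D15 and D30 − DMSO, and a low set, the other 3 conditions, with no overlap between the sets. CIDEC rose by 1.40 ± 0.14 from D4 to D15 (2.64-fold, adjusted p = 5.06e-07) and fell by 1.53 with DMSO (log2 difference, SE 0.14, 2.88-fold, adjusted p = 5.57e-07), and both calls were made under 33 of 33 alternatives. On removal the difference was 0.37 ± 0.14 (adjusted p = 0.069), and D34 ± DMSO differed from D30 − DMSO by -1.15 ± 0.14 (2.22-fold, adjusted p = 3.55e-05, called). The dimmer CIDEC probe read 1661 to 3766 units at D4, 1740 to 2894 units at D30 + DMSO and 2231 to 3838 units at D34 ± DMSO, all below its 4668 to 10579.8 units at D15 and D30 − DMSO. It gave 1.53 ± 0.28 from D4 to D15 (adjusted p = 0.000434) and -1.64 ± 0.28 with DMSO (adjusted p = 0.000361), both called, beside 9.18% and 5.77% of all probes tested, and -1.32 ± 0.28 between D34 ± DMSO and D30 − DMSO (adjusted p = 0.00756, not called). The pseudogene CIDECP1, whose sequence is close to that of CIDEC, had a Pearson r of 0.95 with CIDEC over the 20 arrays, and cross-hybridisation between them was not tested.

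PLIN2 read 1525, 1405, 1855 and 1821 units at D4, and 2174, 2150.3, 1949.7 and 3070.1 units at D15. It read 3459, 3036, 3085 and 3274 units at D30 − DMSO, and 2409.8, 2473, 2492 and 2086 units at D30 + DMSO. It read 2735, 1992, 2114 and 2709.7 units at D34 ± DMSO. The D30 − DMSO cultures were above all others, except that replicate 4 of D15 lay among them, and the D4 cultures were below all others. No comparison was called for PLIN2. It was 0.97 ± 0.15 higher at D30 − DMSO than at D4 (1.96-fold, adjusted p = 8.24e-05, under the fold limit), and the DMSO difference was -0.44 ± 0.15 (adjusted p = 0.051).

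Counted over the 8 genes tested, PPARA and CIDEC rose from D4 to D15, beside 9.42% of all genes called (5.76% higher), and with PLIN2 they were the 3 of 8 without overlap, beside 24.1% of all genes. Between D15 and D30 + DMSO, CIDEC alone was called (-1.50 ± 0.14), beside 6.39% of all genes (4.21% lower). None was called between D15 and D30 − DMSO, where limma called 0.00450% of all genes (1 gene). ANGPTL4 was the 1 of 8 without overlap there, beside 2.31% of all genes. There 2 of the 8 (PLIN2 and ANGPTL4, both higher) had an unadjusted p under 0.05, and 0 of the 8 were called under each of the 33 alternatives, the methods' t-test included. With DMSO at day 30, PDK4 rose and CIDEC fell, beside 5.87% of all genes called (1.71% higher and 4.15% lower). Of the genes called, 29.2% were higher, against 41.4% with normexp background correction. All 8 had an unadjusted p under 0.05, and the share of all genes at that p was not counted. Of the 8, 4 (PPARD, PPARGC1A, PDK4 and CIDEC) had an adjusted p below 0.005 at any fold, beside 9.46% of all genes. The conditions did not overlap for 7 of 8, ANGPTL4 being the exception, beside 25.1% of all genes. On removal PPARD fell, beside 6.99% of all genes called (2.09% lower), and PPARD and PDK4 were the 2 without overlap, beside 23.9% of all genes. Between D34 ± DMSO and D30 − DMSO, PPARGC1A and CIDEC were called lower, beside 1.51% of all genes called and 0.212% called lower, and 4 of 8 (those and PPARD and PLIN2, each lower) had no overlap, beside 11.9% of all genes. Over the 5 conditions together, an F-test with a Bonferroni adjusted p below 0.001 and over 3-fold called 0 of the 8 genes, beside 5.31% of all genes. CIDEC passed its p (1.37e-05) but spanned 2.88-fold, while PPARA and PDK4 spanned 3.94-fold and 4.07-fold with adjusted p of 0.0927 and 0.28. At an unadjusted p under 0.05 all 8 passed, again without a count over all genes. The comparisons that include the D30 + DMSO arrays share those arrays. When the 5 conditions were ranked by mean level for each gene, the steps between neighbours that were called were PPARA from D4 to D15 and CIDEC from D34 ± DMSO to D15 (1.13 ± 0.14, adjusted p = 3.75e-05). PPARD from D30 − DMSO to D30 + DMSO passed the adjusted p alone, and every other step had an adjusted p above 0.005.

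**Figure D2:**
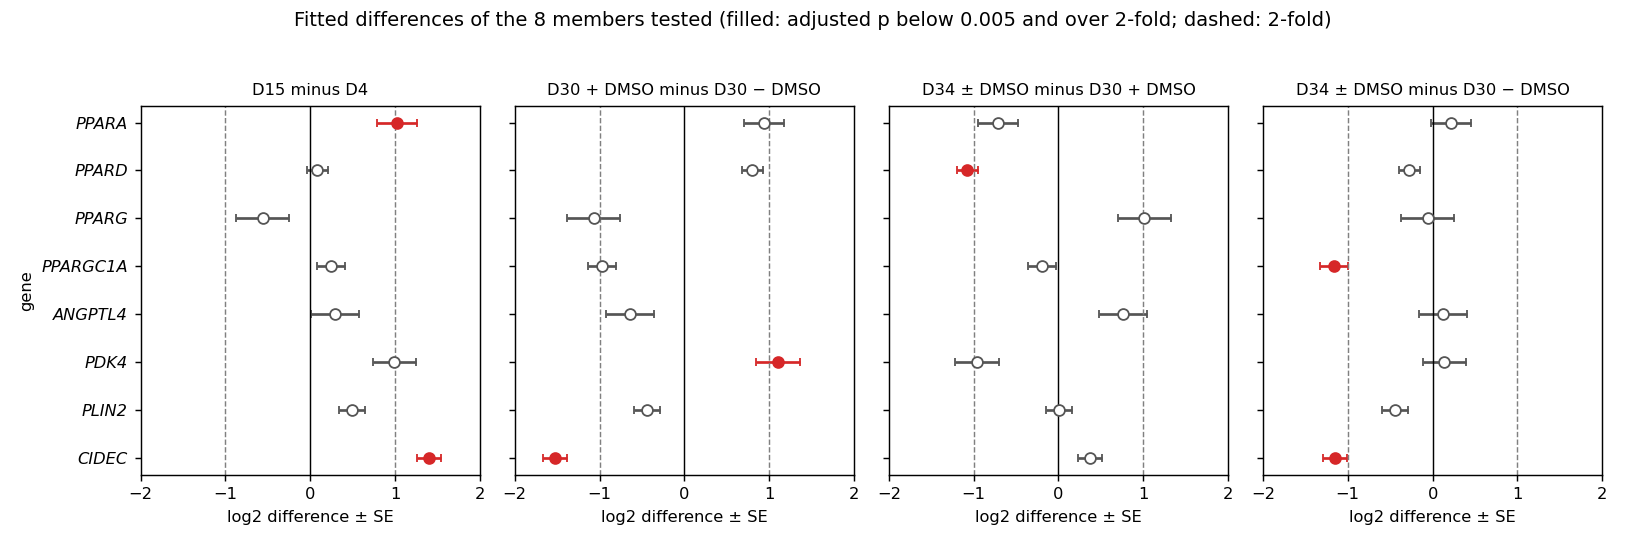
Fitted log2 differences ± SE (horizontal axis) of the 8 genes tested (vertical axis) in 4 comparisons, 4 cultures per condition, with called genes filled and dashed lines at 2-fold. PPARA, PPARD and PDK4 lie to the right with DMSO and to the left on its removal, and PPARG, ANGPTL4 and CIDEC lie the other way round. PPARGC1A and CIDEC lie beyond the 2-fold line on the left between D34 ± DMSO and D30 − DMSO.

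Measured from the progenitors, D30 − DMSO had PPARA (1.04 ± 0.24, adjusted p = 0.00246) and CIDEC (1.43 ± 0.14, adjusted p = 3.33e-07) called, both higher, beside 10.2% of all genes (6.31% higher). PPARA was called there under 24 of 33 alternatives. D30 + DMSO had PPARA and PDK4 called higher and PPARG lower, with the values given above, beside 18.2% of all genes (8.99% higher and 9.20% lower). CIDEC differed from D4 there by -0.10 ± 0.14 (adjusted p = 0.633). D34 ± DMSO had PPARA (1.26 ± 0.24, adjusted p = 0.000538), ANGPTL4 and PDK4 (1.06 ± 0.26, adjusted p = 0.00487) called higher, beside 8.48% of all genes (5.60% higher). PPARA kept this call under 30 of 33 alternatives, and PDK4 under 12 of 33. Without replicate 2 of D34 ± DMSO none of the 3 was called (PPARA 0.98, ANGPTL4 1.20 and PDK4 1.02, adjusted p 0.00106 to 0.0167). The PPARGC1A difference there was -0.72 ± 0.17 (adjusted p = 0.00327, under the fold limit).

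**Figure D3:**
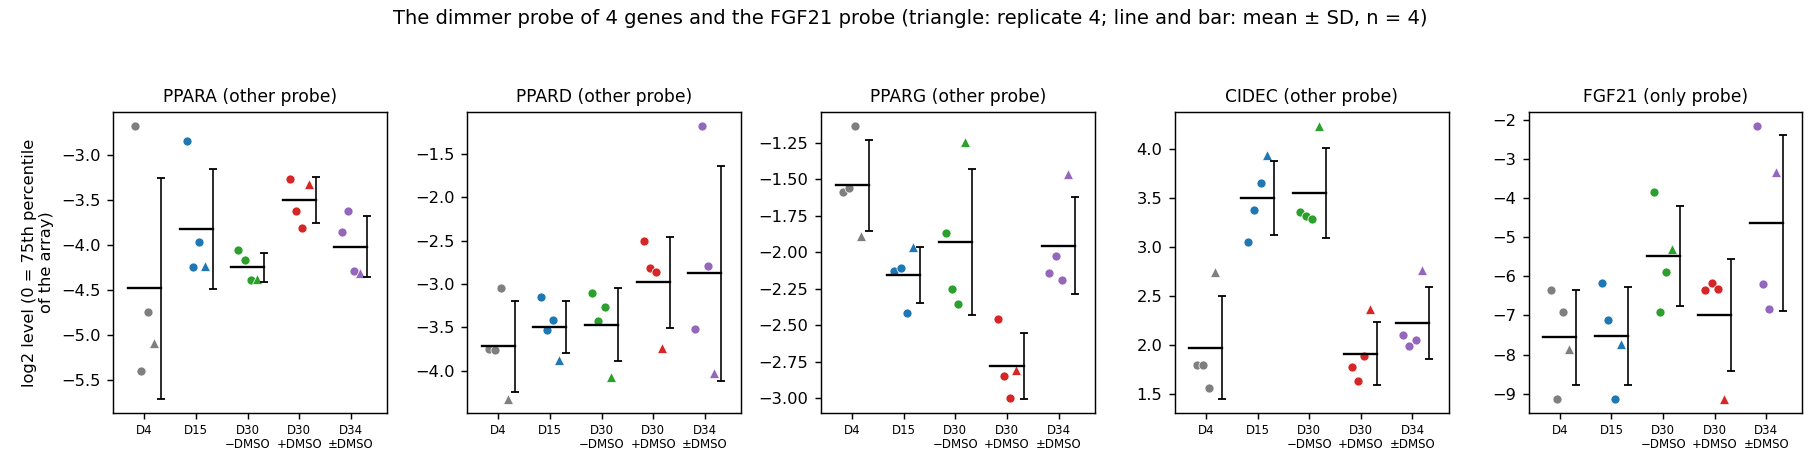
Log2 levels (vertical axis, 0 at the 75th percentile of the array) of the dimmer probe of PPARA, PPARD, PPARG and CIDEC and of the FGF21 probe in the 5 conditions (horizontal axis), 1 point per culture with replicate 4 as a triangle, and the mean ± SD of 4 as a line and bar. The dimmer CIDEC and PPARG probes keep the order of the brighter ones around DMSO, the mean of the PPARD probe is no lower at D34 ± DMSO than at D30 + DMSO, and FGF21 was well above background on 3 of its 20 arrays.

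The surrounding pathway was read through 7 lists of 110 genes, of which 103 could be tested. The lists were chosen with earlier results of these data known, so their counts describe the lists and do not test them. APOA1 is also 1 of the 9 hepatocyte markers, all of which rose from D4 to D15. The part of hepatocyte differentiation in general in these counts was not tested. From D4 to D15, 31 of the 103 rose and 3 fell, beside 5.76% of all genes called higher and 3.66% called lower, and the median difference was 0.58 beside 0.04 over all genes. In the list of fatty acid oxidation and ketogenesis, 8 of 25 rose and 0 fell (median 0.91). All 25 had an unadjusted p under 0.05, and the share of all genes at that p was not counted. Those that rose included CYP4A11, a fatty acid omega-hydroxylase (4.50 ± 0.24), and the oxidation enzymes EHHADH (1.92 ± 0.31) and ACADL (1.50 ± 0.15). Among FGF21 and ANGPTL partners and secreted PPAR targets, 10 of 14 rose and 1 fell (median 3.36), among them the apolipoproteins APOA2 (5.52 ± 0.43), APOC3 (5.41 ± 0.37) and APOA1 (5.15 ± 0.37). Of 13 genes of fatty acid uptake and activation, 3 rose and 1 fell (median 0.58), with FABP1, the fatty acid carrier of hepatocytes, at 7.01 ± 0.45, SLC27A5 at 6.44 ± 0.29, and FABP5 at -1.70 ± 0.39. FABP4, the carrier of adipocytes and an adipocyte marker, stood well above background in 0 of 4 D4 cultures and in 3 of 4 D15 cultures. It rose by an estimated 3.53-fold or more, an uncertain bound, since it averages all 4 D15 arrays. Among the fasting regulators and gluconeogenic genes, 4 of 12 rose and 0 fell (median 0.36), namely G6PC1, the last enzyme of glucose release (at least 25.5-fold, not well above background at D4), the glucagon receptor GCGR (4.21 ± 0.31), TAT (2.54 ± 0.40) and the insulin receptor INSR (1.43 ± 0.20). Of 15 lipid droplet proteins and lipases 5 rose and 1 fell (median 0.19), with CIDEB, a relative of CIDEC, at 3.62 ± 0.27, the droplet protein PLIN5 at 3.18 ± 0.41, the triglyceride-forming enzyme DGAT2 at 2.07 ± 0.21 and FITM1 at 1.78 ± 0.33. The sizes for TAT, PLIN5 and FITM1 are uncertain, since their probes were well above background on 2 of 4 D4 arrays. Of 10 genes around pyruvate dehydrogenase PDK2 alone rose (1.27 ± 0.16), and of the 14 receptor partners and coregulators limma called 0 (2 at an unadjusted p under 0.05).

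With DMSO, 8 of the 103 rose and 6 fell, beside 1.71% of all genes called higher and 4.15% called lower, with a median of 0.21 beside 0.04 over all genes. The peroxisomal oxidation enzymes EHHADH (1.42 ± 0.31, adjusted p = 0.00332) and ACAA1 (1.29 ± 0.19, adjusted p = 0.000104) rose, and 0 of the 25 oxidation genes fell. PCK1, the first committed enzyme of gluconeogenesis, rose (adjusted p = 0.00033), and its fitted difference of 4.12 ± 0.70 is of uncertain size, since the probe was well above background on 1 of 4 arrays at D30 − DMSO. G6PC1 rose by 1.76 ± 0.37, while GCGR fell (-2.64 ± 0.31). Of the droplet list DGAT2 rose (1.91 ± 0.21), while PLIN3 (-1.35 ± 0.24) and the lipase MGLL (-1.02 ± 0.18) fell. APOA5 (2.24 ± 0.41) and APOC3 (2.07 ± 0.37) rose, and VNN1 (-2.08 ± 0.31) and ANGPTL8 (-1.97 ± 0.28) fell. SLC27A5 rose (1.86 ± 0.29) and FABP4 fell (-2.94 ± 0.61), a size as uncertain, since its probe was well above background on 1 of 4 arrays with DMSO. Of the 14 receptor partners and coregulators limma called 0 (2 at an unadjusted p under 0.05), and of the 10 genes around pyruvate dehydrogenase 0 (4 at an unadjusted p under 0.05). Of the adipocyte markers 2 were tested, and 1 of them, FABP4, was called lower. FABP4 was well above background on 4 of 4 arrays at D30 − DMSO, against 0 of 4 at D4 and 3 of 4 at D15. Because it passed the filter through a condition where it was high, its fall says nothing about adipocyte markers in general. The summed intensity of that list was 139.7 to 194 units with DMSO and 161 to 219 units without.

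On removal, 7 of the 103 rose and 9 fell, beside 4.91% of all genes called higher and 2.09% called lower, with a median of -0.29 beside -0.07 over all genes. DGAT2 (-1.99 ± 0.21), SLC27A5 (-1.99 ± 0.29), G6PC1 (-2.50 ± 0.37), APOA5 (-2.20 ± 0.41), APOC3 (-1.63 ± 0.37) and ACAA1 (-1.19 ± 0.19) fell, each having risen with DMSO. VNN1 (2.84 ± 0.31), GCGR (2.50 ± 0.31), ANGPTL8 (1.49 ± 0.28) and PLIN3 (1.37 ± 0.24) rose, each having fallen with DMSO, and both comparisons use the same D30 + DMSO arrays. The acyltransferase DGAT1 (-1.15 ± 0.15), the deacetylase SIRT1, which acts on PPARGC1A (-1.12 ± 0.22), and the phosphatase PDP1 (-1.03 ± 0.21) fell, and CYP4A11 (1.80 ± 0.24), CYP4A22 (1.36 ± 0.29) and FABP5 (1.68 ± 0.39) rose. CYP4A11 and CYP4A22 are close in sequence, and cross-hybridisation between their probes was not tested. The size for CYP4A22 is uncertain, since its probe was well above background on 2 of 4 D30 + DMSO arrays. Between D34 ± DMSO and D30 − DMSO limma called 0 of the 103, beside 1.51% of all genes called. At an unadjusted p under 0.05 there were 18 of the 103, without a count over all genes. The median was -0.08 beside -0.03 over all genes. All 5 proliferation markers rose on removal as well, and their part in these differences was not tested.

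**Figure D4:**
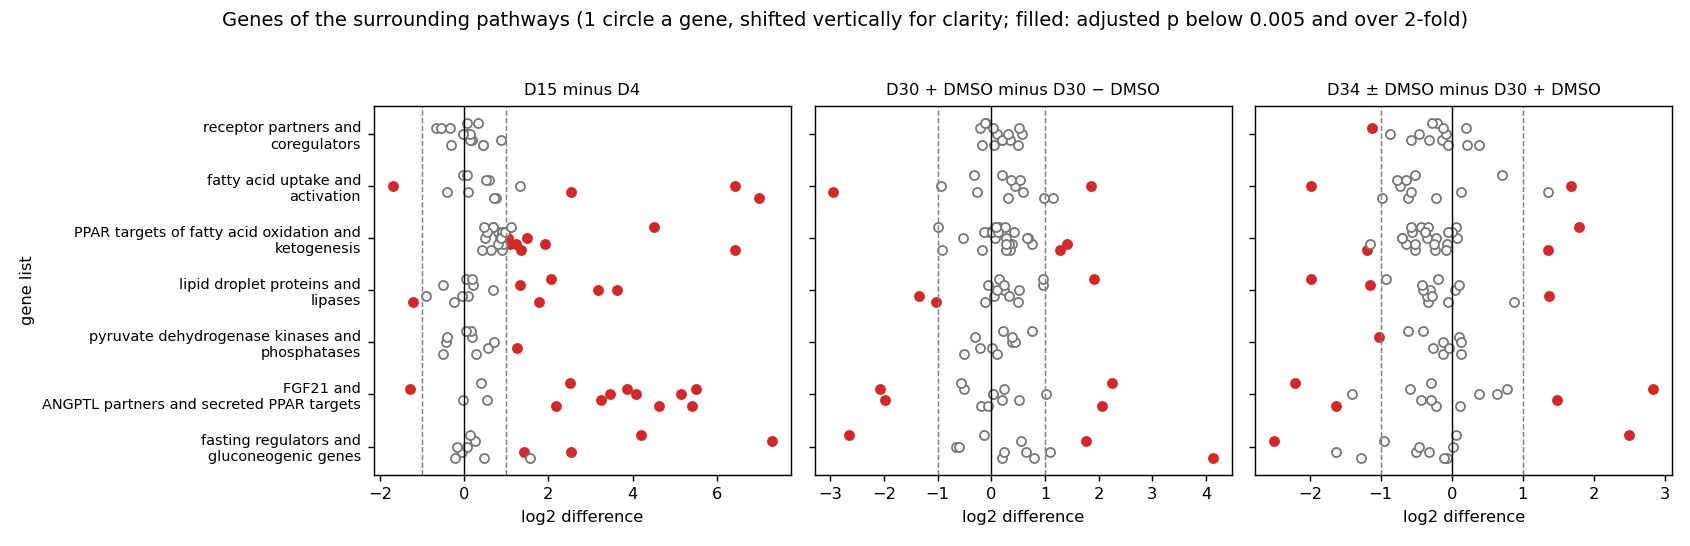
Fitted log2 differences (horizontal axis, a scale of its own in each panel) of the 103 pathway genes tested, 1 circle per gene in rows by list (vertical axis), with called genes filled and dashed lines at 2-fold. Called genes lie mostly to the right at D15 against D4 (31 rose, 3 fell), and on both sides with DMSO (8 and 6) and on its removal (7 and 9).

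Among 12393 named genes, those whose log2 levels over the 20 arrays were most like each member were given by Pearson r, as a description over arrays that share conditions and slides. They were picked on these same arrays, so changes that match those of the member follow from the choice. SLC25A42, a mitochondrial carrier of coenzyme A, was the closest to both PPARA (r = 0.94) and PDK4 (r = 0.93), and it differed by 1.39 ± 0.19 from D4 to D15 (called) and 0.89 ± 0.19 with DMSO (adjusted p = 0.00259, under the fold limit). The next were the aldehyde oxidase AOX1 for PPARA (0.94), which rose by 1.89 ± 0.20 with DMSO, and TMEM41A for PDK4 (0.93). PPARD was closest to SUMF1 (0.94) and TRAPPC9 (0.93), and PPARG to TRIM29 (0.94) and C1QL1 (0.93), both of which fell with DMSO (-1.69 ± 0.36 and -1.79 ± 0.42). PPARGC1A was closest to RNF14 (0.88) and ATP1B1 (0.87), ANGPTL4 to CPS1-IT1 (0.92) and KRTAP4-1 (0.89), and PLIN2 to CD14 (0.85) and SLC38A4 (0.84). CIDEC was closest to RAB37 (0.96), which rose by 1.36 ± 0.14 from D4 to D15 and fell with DMSO (-1.35 ± 0.14), and to CIDECP1. Between members, r was 0.69 for PPARGC1A and CIDEC, -0.64 for PPARD and PPARG, and -0.60 for PPARA and PPARG.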

How the data were processed

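RNA of 20 HepaRG cultures was hybridised to one-colour Agilent arrays. Per the labels, the authors extracted spots with Agilent Feature Extraction 10.7.3.1, while the file headers give 10.7.1.1, and the deposited intensities (processed signal) were background-subtracted. The series matrix held the authors' log2 values, which matched the scanner values with each array centred near its 75th percentile (column medians -0.204 to 0.171), and it served as an alternative.

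Here intensities were scaled to the 75th percentile of each array (406.613 to 765.732 units before scaling), given a floor of 1 and taken to log2. Spots of a probe were averaged without spots flagged as outliers. Control spots were left out. Between 61.1% and 74.2% of spots were well above background. Each gene was represented by its probe of highest mean among those kept, and that probe is called the brighter one. The number of arrays, 4 per condition, limits the precision. The labels call the cultures independent experiments.

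The 5 conditions were fitted together with limma 3.58.1 in R 4.3.3 (data.table, version 1.17.8), with Benjamini-Hochberg adjustment over all genes tested, and all log2 differences, SEs and adjusted p come from that fit. The F-test used Bonferroni adjustment. The script was tested on simulated data. Alternatives were quantile normalization, normexp with an offset of 50, a floor of 10, the authors' log2 values, other filters, every probe as a row, the slide, scan session or replicate number as a block, only the arrays compared, the t-test named in the study's methods, an adjusted p of 0.05, and each array left out in turn. The scan session was added after seeing the data. The alternatives share arrays and are not independent checks, and an adjusted p of 0.05 can only add calls. An array left out often lay outside the conditions compared. The members and lists were chosen with earlier results of these data known. The text names all members, up to 4 called genes per list and comparison with the largest log2 change, and the 2 named genes most correlated with each member among those well above background on all 20 arrays. Some genes that this rule or the marker lists name are not reported here by name, but are included in the counts. Array accessions were matched to RefSeq for gene names. Promoter windows came from RefSeq GRCh38.p14.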

Additional observations from a re-analysis of the deposited data

Results flagged for a closer look

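Within a condition, 6 of 65 sets of 4 arrays (13 probes in 5 conditions) had 1 array standing apart from the other 3 by Dixon's test, and chance gives this in about 5% of sets. PPARD was high on replicate 3 of D30 + DMSO, with a log2 level of 1.98 against 1.65 to 1.69. The brighter PPARG probe was high on replicate 4 of D30 + DMSO (-1.10 against -1.88 to -1.78). The brighter CIDEC probe was low on replicate 2 of D30 + DMSO (4.50 against 4.61 to 4.63). The dimmer CIDEC probe was high on replicate 4 of D30 − DMSO (4.23 against 3.29 to 3.36) and on replicate 4 of D34 ± DMSO (2.77 against 1.99 to 2.10). FGF21, not well above background in that condition, was compared by intensity, and was low on replicate 4 of D30 + DMSO (-0.791 against 6.88 to 7.80 units). Its log2 level there was at the floor (-9.14). All arrays numbered replicate 4 were on the slide that was scanned apart from the other 3.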

How the results depend on the processing

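Of 2112 values of single members over alternatives, 1980 had the direction and the side of the threshold given in the report, 88 lost a call, 26 gained one and 18 changed sign. From D4 to D15 the count of members called, 2 in the report, was 1 with normexp, the authors' log2 values, no filter on dim probes and the methods' t-test, PPARA being lost (0.83 with normexp). With DMSO at day 30 the count, also 2, was 1 with quantile normalization, the authors' log2 values, no filter, only the arrays compared and the t-test, PDK4 being lost, and 4 with the slide as a block (PPARA 1.10, PPARG -1.26, PPARGC1A -1.03 and CIDEC). On removal the count, 1 in the report, was 0 with quantile normalization and normexp, and 2 with the slide, the scan session or the replicate number as a block and at an adjusted p of 0.05, PPARG being added. Between D34 ± DMSO and D30 − DMSO the count, 2 in the report, was 1 with only the arrays compared and 0 with the t-test. The F-test, 0 in the report, called 1 with quantile normalization and 1 with slides blocked. With 1 array left out, the counts ranged from 1 to 2, from 0 to 0, from 1 to 2, from 0 to 1 and from 2 to 2 in the order D15 against D4, D30 − DMSO against D15, DMSO at day 30, removal, and D34 ± DMSO against D30 − DMSO, and the F-test count stayed at 0. Against D4 the counts, 2, 3 and 3 in the report, ranged from 1 to 3 for D30 − DMSO, from 2 to 3 for D30 + DMSO and from 0 to 3 for D34 ± DMSO, where all 3 calls were lost without replicate 2 of D34 ± DMSO.

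Between conditions, 27 of 40 same-numbered pairs of arrays correlated above 0.1 (median 0.26), against 43 of 120 other pairs (median -0.16). On the same slide 44 of 44 pairs did (median 0.38), against 26 of 116 pairs on different slides (median -0.17). Every replicate 4 was on 1 slide, so these pairs cannot tell whether the replicate number or the slide links the arrays. With the replicate block, PPARG was called with DMSO (-1.07, adjusted p = 0.000113) and on removal (1.01, adjusted p = 0.000147), giving counts of 3 and 2.

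Changes of sign touched only differences that were not called. PPARA, with the slide blocked, between D15 and D30 − DMSO was -0.051. With 1 array left out, D15 against D4 gave -0.0035 to 0.15 for PPARD. D30 − DMSO against D15 gave -0.078 to 0.11 for PPARA, -0.067 to 0.41 for PPARG, -0.30 to 0.078 for PDK4 and -0.028 to 0.073 for CIDEC. Removal gave -0.068 to 0.085 for PLIN2. D34 ± DMSO against D30 − DMSO gave -0.059 to 0.38 for PPARA, -0.34 to 0.26 for PPARG and -0.044 to 0.27 for ANGPTL4, and D30 + DMSO against D4 gave -0.15 to 0.011 for CIDEC. Each member kept its highest and its lowest condition under every setting, except that leaving out 1 array changed 1 or the other for CIDEC or ANGPTL4 (6 to 8 of 8 kept both).

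Over all genes the counts called fell from 2093 to 1377 with normexp and 1104 with the t-test for D15 against D4, from 1304 to 655 and 581 with DMSO, and from 1554 to 852 and 490 on removal. For D34 ± DMSO against D30 − DMSO they fell from 336 to 170 with only the arrays compared and 41 with the t-test, and the F-test count rose from 1180 to 1786 at an adjusted p of 0.05. The cause of these changes was not tested. FGF21, tested without a filter, had adjusted p of 0.0725 to 1.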
